A study of Mus musculus with 12 samples.

Results

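Insulin signaling and GLUT4 genes were followed in whole adipose tissue from mice with vascular anomalies and from normal controls. The set holds 8 genes, taken by symbol or by Ensembl identifier from the 32774 rows of the deposited table. Slc2a4 encodes the glucose transporter GLUT4, and Trarg1, listed under its older symbol Tusc5, encodes a membrane protein of GLUT4 vesicles. Insr encodes the insulin receptor, and Irs1, Irs2 and Irs3 encode the adaptor proteins that it phosphorylates. Akt2 encodes the AKT kinase isoform most closely tied to insulin-stimulated glucose uptake, and Pde3b a phosphodiesterase that lowers cyclic AMP downstream of AKT.

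In a fat cell, insulin binding activates the receptor, the phosphorylated adaptors recruit PI3-kinase, and AKT2 then releases GLUT4 vesicles to the cell surface. The same pathway restrains lipolysis through PDE3B. Skeletal muscle also expresses GLUT4, and Irs3 is known as an adaptor gene of rodent adipocytes that is a pseudogene in humans.

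The anomalies came from C57BL/6 mice of the genotype VEC-Cre;SB Transposase; onc3, and the controls from C57BL/6 mice of the genotype SB Transposase; onc3. Both groups therefore carried the Sleeping Beauty transposase and the onc3 transposon, and Cre, driven in the endothelium by the VE-cadherin promoter, was the labelled difference. The labels give no ages. The 8 anomaly libraries came from 7 animals, with a leg and an arm piece from animal M566, and the 4 control libraries from 4 animals. The anomaly titles name subQ tissue in 5 animals and fat in 2, and all control titles name fat.

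Depth was 11749969 to 29763059 recovered reads in 7 anomaly libraries and 10337258 to 33980694 in the controls. The library of anomaly animal M580 held 953994, and 3 reads there were worth 2.23 CPM, against 0.0914 to 0.267 CPM in the other 11 libraries. The column of anomaly animal M605 carries a control name on one of its header lines and an anomaly name on the other and in the labels, and it was kept as an anomaly. The adipocyte identity of the tissue was read from 8 marker genes, Adipoq, Plin1, Plin4, Cidec, Lgals12, Retn, Cfd and Adrb3. Their mean was 5.71 ± 2.77 log2 CPM across anomaly animals and 10.80 ± 0.50 across controls (SD, n = 7 and 4). It was lowest in M610, at 1.51, and the anomaly nearest to the controls was 18f, at 9.17.

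All 8 genes were measured above the filter on low values, and all 8 passed the test (adjusted p under 0.05) with lower values in anomalies. Of the 12955 genes tested by limma, 23.2% were lower and 15.3% higher by the same rule, and the median log2 fold change of all genes was -0.10. The falls were between 2.21-fold for Insr and 15.4-fold for Irs3. The animals of the groups did not overlap for 5 of the 8 genes, Slc2a4, Irs1, Irs3, Akt2 and Pde3b, where 12.4% of all genes were lower and 8.3% higher without overlap. Without M580 all 8 genes kept their call, and without M605, or without M580 and M566 together, all kept it except Irs2. In bulk tissue, fewer cells of a type and less RNA per cell cannot be told apart.

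**Figure D1:**
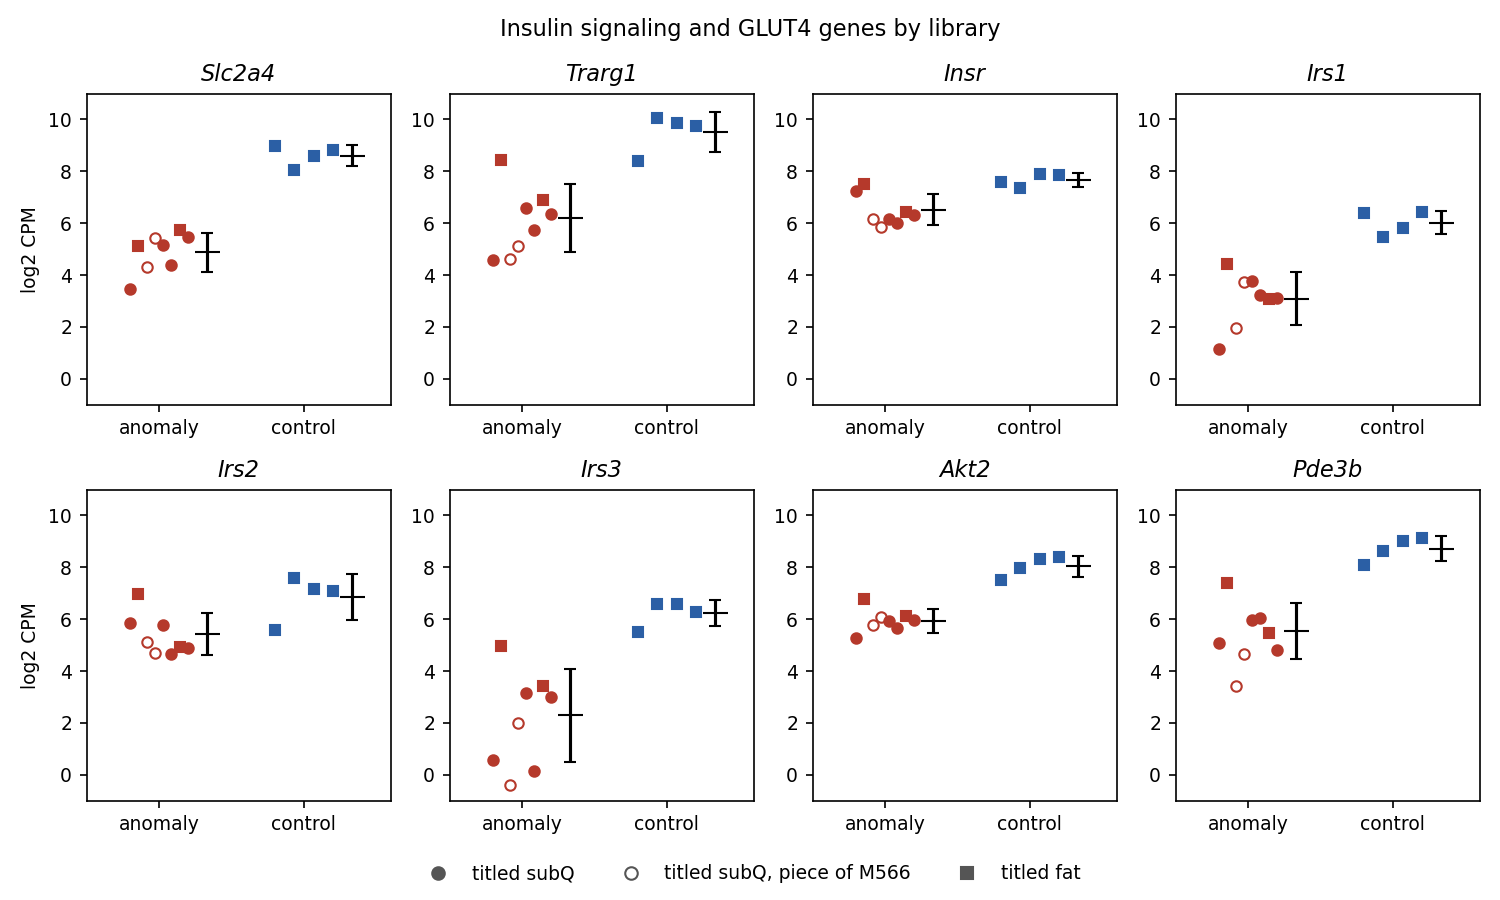
Deposited log2 CPM of the 8 genes in each library, with anomalies to the left of controls in each panel. Circles are libraries titled subQ (open for the pieces of M566), squares are libraries titled fat, and the cross with whiskers is the mean ± SD over animals. Slc2a4 had anomaly libraries between 3.48 and 5.73, all below the controls at 8.04 to 8.96.

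The GLUT4 gene had the smallest p of the set and ranked 16 of 12955. Slc2a4 (ENSMUSG00000018566, chromosome 11, 69942539 to 69948188, minus strand, GRCm38) had 3.48 log2 CPM in anomaly M580, 5.10 in 18f, 4.30 in the M566 leg piece and 5.41 in the M566 arm piece. It had 5.15 in F578, 4.40 in M610, 5.73 in M278 and 5.46 in M605. The controls had 8.96 in F539, 8.04 in M5, 8.59 in M602 and 8.82 in M2. The highest anomaly, at 5.73, lay well below the lowest control, at 8.04. The mean was 4.88 ± 0.75 log2 CPM in anomalies and 8.60 ± 0.40 in controls, which is 13.2-fold lower (log2 -3.72 ± 0.38, SE, adjusted p = 0.000569). The value in M580 rests on 15 reads, and leaving out any 1 animal gave changes between -3.91 and -3.49.

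Trarg1, whose protein travels with GLUT4 vesicles, varied more between anomalies. Trarg1 (ENSMUSG00000046275, chromosome 11, 76679808 to 76698664, plus strand) had 4.57 log2 CPM in anomaly M580, 8.44 in 18f, 4.62 in the M566 leg piece, 5.11 in the M566 arm piece, 6.58 in F578, 5.73 in M610, 6.88 in M278 and 6.37 in M605. The controls had 8.38 in F539, 10.06 in M5, 9.85 in M602 and 9.75 in M2. The groups overlapped at 1 point, where anomaly 18f stood just above control F539. The log2 fold change was -3.31 ± 0.66 (adjusted p = 0.00372), or 9.90-fold. In the same pair of libraries Slc2a4 was 3.85 log2 units lower in 18f than in F539, the control with the highest Slc2a4.

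The receptor gene showed the smallest change. Insr (ENSMUSG00000005534, chromosome 8, 3122061 to 3279617, minus strand) had a lowest value of 6.01 log2 CPM, a median of 6.30 and a highest value of 7.50 among the 7 anomaly animals. The controls had 7.57 in F539, 7.34 in M5, 7.90 in M602 and 7.85 in M2. Anomaly 18f lay above control M5, and the other anomalies lay below all controls. The change was -1.15 ± 0.30 (adjusted p = 0.0127), or 2.21-fold. With scaling by library totals it was -0.72 and not past the threshold (adjusted p = 0.0683).

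The 3 adaptor genes fell by unequal amounts. Stretches of 250 bases upstream of their annotated starts are shown so that the adaptors can be compared in sequence beside their unequal changes. The sequences are from RefSeq on GRCm38.p6, all read 5′ to 3′ on the minus strand. Capitals mark matches on either strand to the GC box motif GGGCGG, the CCAAT motif or the E-box motif CACGTG, and no matches overlap here.
Irs1, chr1:82291440-82291689: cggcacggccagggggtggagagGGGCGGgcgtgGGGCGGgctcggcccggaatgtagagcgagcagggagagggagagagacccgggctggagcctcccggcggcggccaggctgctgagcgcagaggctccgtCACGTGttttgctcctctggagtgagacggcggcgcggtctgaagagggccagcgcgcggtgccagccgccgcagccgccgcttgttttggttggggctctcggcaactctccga
Irs2, chr8:11008930-11009179: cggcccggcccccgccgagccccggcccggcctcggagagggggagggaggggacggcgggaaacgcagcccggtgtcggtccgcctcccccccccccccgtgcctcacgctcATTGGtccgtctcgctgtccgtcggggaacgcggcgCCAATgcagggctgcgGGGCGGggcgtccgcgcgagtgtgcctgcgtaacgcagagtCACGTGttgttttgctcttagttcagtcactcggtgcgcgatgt
Irs3, chr5:137645715-137645964: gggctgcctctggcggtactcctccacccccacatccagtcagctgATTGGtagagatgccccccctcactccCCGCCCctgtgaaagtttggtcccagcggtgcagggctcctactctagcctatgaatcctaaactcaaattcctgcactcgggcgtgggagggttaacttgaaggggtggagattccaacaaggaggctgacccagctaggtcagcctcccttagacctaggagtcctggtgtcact
The Irs1 stretch had 72.4% G and C with 28 CpG, the Irs2 stretch 72.8% with 34 CpG, and the Irs3 stretch 58.4% with 5 CpG. The medians of all 32851 promoter entries in that table were 52.4% and 6 CpG. The Irs1 stretch held 2 GC boxes and 1 E-box, the Irs2 stretch 1 GC box, 2 CCAAT motifs and 1 E-box, and the Irs3 stretch 1 GC box and 1 CCAAT motif. Among all entries 32.7% held GGGCGG, 33.8% CCAAT and 6.02% CACGTG. The TATA box motif TATAAA, the FOXO element motif GTAAACA, the C/EBP element motif TTGCNNAA and the DR1 element matched in none of these 3 stretches, against 12.4%, 3.17%, 9.56% and 0.0335% of all entries. A match is a description of letters and not a bound site.

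Irs3 had the largest fold of the set and the widest spread. Irs3 (ENSMUSG00000047182, chromosome 5, 137643031 to 137645714, minus strand) had 0.58 log2 CPM in anomaly M580, 4.96 in 18f, -0.39 in the M566 leg piece, 2.0 in the M566 arm piece, 3.15 in F578, 0.13 in M610, 3.42 in M278 and 2.99 in M605. The controls had 5.49 in F539, 6.57 in M5, 6.59 in M602 and 6.29 in M2. Every anomaly lay below every control, and the anomaly values spanned 4.82 log2 units across animals. The change was -3.95 ± 0.85 (adjusted p = 0.00526), or 15.4-fold. M580 held 2 reads of Irs3, the M566 leg piece 11 and M610 25.

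Irs1, the adaptor first tied to the insulin receptor, lies on chromosome 1 (ENSMUSG00000055980, 82233101 to 82291416, minus strand). Its lowest anomaly value was 1.16 log2 CPM, in M580 and from 3 reads, its median was 3.12 and its highest 4.42. The controls had 6.38 in F539, 5.47 in M5, 5.83 in M602 and 6.41 in M2. The groups did not overlap, and the change was -2.93 ± 0.49 (adjusted p = 0.00190), or 7.62-fold. Exons of Gm9747, on the opposite strand and not analysed here, overlap those of Irs1, and the unstranded kit cannot separate their reads.

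Irs2, an adaptor gene of many tissues, was the least firmly lowered. Irs2 (ENSMUSG00000038894, chromosome 8, 10984681 to 11008458, minus strand) had 5.86 log2 CPM in anomaly M580, 6.98 in 18f, 5.10 in the M566 leg piece, 4.70 in the M566 arm piece, 5.78 in F578, 4.67 in M610, 4.91 in M278 and 4.89 in M605. The controls had 5.59 in F539, 7.58 in M5, 7.17 in M602 and 7.08 in M2. Control F539 lay below anomalies M580, 18f and F578. The change was -1.43 ± 0.48 (adjusted p = 0.0363), or 2.69-fold. The call was lost without M566 (adjusted p = 0.0570), M610 (0.0632), M278 (0.0628), M605 (0.0640), M5 (0.111), M602 (0.105) or M2 (0.0947), and with library totals (0.0842). The antisense gene 9530052E02Rik overlaps its exons and had 0.0614 to 1.23 CPM in anomalies and 0.159 to 0.486 CPM in controls.

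The share of each adaptor in the 3-gene total, taken per kilobase of exon, also differed. Irs2 made up 64.7% ± 15.3 of that total in anomalies and 31.7% ± 7.80 in controls. Irs3 made up 25.1% ± 15.5 in anomalies and 54.5% ± 2.94 in controls, with 6.33% to 44.6% across anomaly animals and 52.1% to 58.8% across controls. Irs1 made up 10.2% ± 5.07 in anomalies and 13.8% ± 8.39 in controls (SD, n = 7 and 4). The controls thus kept Irs3 within a narrow band, and no anomaly animal reached it. Ratios between the adaptors were added after the values had been seen, when Irs3 alone already did not overlap between the groups. The Irs3 to Irs2 log2 ratio per kilobase was -1.70 ± 1.48 in anomalies and 0.82 ± 0.39 in controls, a difference of -2.52 or 5.72-fold (two-sided exact permutation p = 0.00606, adjusted 0.00970 over 8 ratios). The Irs2 to Irs1 ratio was 2.87 ± 1.09 in anomalies and 1.37 ± 1.23 in controls and overlapped (exact permutation p = 0.0545, adjusted 0.0623). Without control M5 its difference of 1.502 became 1.93 (adjusted exact permutation p = 0.0222). The Irs3 to Irs1 ratio was 1.17 ± 1.31 in anomalies and 2.18 ± 0.90 in controls, also with overlap (exact permutation p and adjusted p = 0.2).

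Akt2, the kinase gene, changed with little spread. Akt2 (ENSMUSG00000004056, chromosome 7, 27591552 to 27640826, plus strand) had 5.27 log2 CPM in anomaly M580, 6.79 in 18f, 5.78 in the M566 leg piece, 6.08 in the M566 arm piece, 5.93 in F578, 5.64 in M610, 6.12 in M278 and 5.95 in M605. The controls had 7.51 in F539, 7.96 in M5, 8.32 in M602 and 8.39 in M2. The groups did not overlap. The change was -2.10 ± 0.26 (adjusted p = 0.000836), or 4.28-fold, and it ranked 91 of 12955 by p.

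Pde3b, the cyclic AMP phosphodiesterase gene of the antilipolytic branch, followed with a larger fold. Pde3b (ENSMUSG00000030671, chromosome 7, 114415281 to 114539251, plus strand) had a lowest anomaly value of 4.03 log2 CPM, in M566, a median of 5.48 and a highest value of 7.39, in 18f. The controls had 8.07 in F539, 8.63 in M5, 9.002 in M602 and 9.14 in M2. All anomalies lay below all controls. The change was -3.17 ± 0.52 (adjusted p = 0.00173), or 8.996-fold.

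Of 5 close paralogs, Slc2a1, Slc2a3, Igf1r, Akt1 and Pde3a, 3 were called higher in the anomalies and 0 lower. Slc2a1, the gene of the basal glucose transporter GLUT1, had 7.30 log2 CPM in M580, 5.60 in 18f, 8.83 in the M566 leg piece, 6.15 in the M566 arm piece, 7.56 in F578, 8.08 in M610, 4.93 in M278 and 5.47 in M605. The controls had 4.97 in F539, 4.50 in M5, 4.34 in M602 and 4.29 in M2. Anomaly M278 lay within the controls, and the others lay above them. The log2 fold change was 2.11 ± 0.59 (adjusted p = 0.0170), lost without control M602 (0.0536) or M2 (0.0513) and without M580 and M566 together (0.0545). In the fat-titled anomalies alone it was 0.74 (0.137). Akt1, the broadly expressed AKT gene, rose by 0.61 ± 0.17 (adjusted p = 0.0165), lost without M602 (0.0567) or M2 (0.0520). Pde3a, the phosphodiesterase paralog of heart and vessels, rose by 1.25 ± 0.45 (adjusted p = 0.0465). That call was lost without F578 (0.0795), M605 (0.0648), M610 (0.0779), F539 (0.0787), M5 (0.0623), M602 (0.136) or M2 (0.0977). The IGF1 receptor gene Igf1r was at 0.53 (adjusted p = 0.0719) and the GLUT3 gene Slc2a3 at 0.79 (0.254), neither past the threshold. Irs4 was not analysed here.

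The balance within each pair of paralogs was compared per kilobase of exon, a comparison added after the values had been seen. The Slc2a1 to Slc2a4 log2 ratio was 1.74 ± 1.84 in anomalies and -4.09 ± 0.42 in controls, a difference of 5.83 or 56.9-fold. The Pde3a to Pde3b ratio was -1.17 ± 1.39 in anomalies and -5.59 ± 0.66 in controls, a difference of 4.42. The Slc2a3 to Slc2a4 ratio was -2.04 ± 1.47 in anomalies and -6.55 ± 0.74 in controls, a difference of 4.51. The Akt1 to Akt2 ratio was 2.90 ± 0.51 in anomalies and 0.20 ± 0.45 in controls, a difference of 2.70. In these 4 ratios the groups did not overlap, and each had a two-sided exact permutation p of 0.00606, the smallest that 330 splits of 11 animals allow, adjusted to 0.00970. The denominators Slc2a4, Akt2 and Pde3b alone already did not overlap between the groups. These p-values are therefore no separate evidence of a changed balance. The share of other gene pairs without overlap was not computed. The Igf1r to Insr ratio was -0.90 ± 0.83 in anomalies and -2.58 ± 0.55 in controls and overlapped (exact permutation p = 0.0182, adjusted 0.0242). Without control M602 its difference of 1.68 was 1.504, and without M2 it was 1.54 (adjusted exact permutation p = 0.0667 for both). A ratio within a library does not depend on how libraries are scaled.

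**Figure D2:**
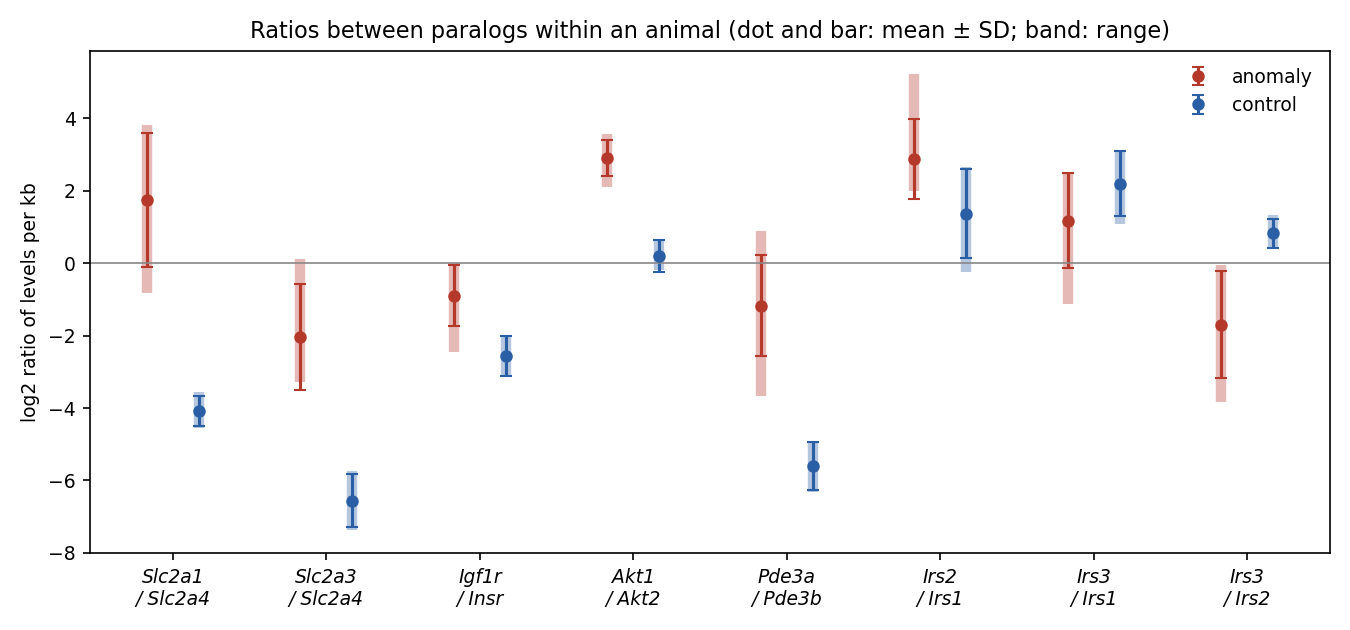
Log2 ratios of levels per kilobase for 8 pairs of paralogs, with anomalies to the left of controls. Dots with whiskers are means ± SD over animals and pale bands are ranges, and the Slc2a1 to Slc2a4 ratio lies between -0.82 and 3.81 in anomalies and between -4.54 and -3.55 in controls.

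Levels per kilobase put Trarg1 first and Irs1 last in both groups. In anomalies the log2 CPM per kilobase was 4.48 for Trarg1, 3.11 for Akt2, 3.08 for Slc2a4, 2.77 for Irs2, 2.74 for Insr, 2.35 for Pde3b, 1.06 for Irs3 and -0.10 for Irs1. In controls it was 7.79 for Trarg1, 6.81 for Slc2a4, 5.52 for Pde3b, 5.21 for Akt2, 5.01 for Irs3, 4.19 for Irs2, 3.89 for Insr and 2.83 for Irs1. Slc2a4, Pde3b and Irs3 held later places in the anomalies than in the controls, and Akt2, Irs2 and Insr earlier ones. Among anomalies Trarg1 exceeded Akt2 by 1.37 ± 0.92 in 7 of 7 animals, while Akt2 and Slc2a4 (0.03 ± 0.55), Slc2a4 and Irs2 (0.32 ± 1.19), Irs2 and Insr (0.03 ± 0.46), Insr and Pde3b (0.39 ± 0.93), Pde3b and Irs3 (1.29 ± 1.47), and Irs3 and Irs1 (1.17 ± 1.31) differed by less than their spread. Among controls Slc2a4 exceeded Pde3b by 1.28 ± 0.67, Pde3b exceeded Akt2 by 0.31 ± 0.08, Irs3 exceeded Irs2 by 0.82 ± 0.39 and Insr exceeded Irs1 by 1.06 ± 0.40, each in 4 of 4 animals. The control differences of Trarg1 and Slc2a4 (0.98 ± 1.09), Akt2 and Irs3 (0.20 ± 0.32), and Irs2 and Insr (0.31 ± 0.91) were within their spread.

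The adipocyte markers were lower as well, and Slc2a4 parted from them in both directions. Its clearly larger fall in 18f rests on that library alone. In 18f the marker mean was 1.64 log2 units below the control mean, while Slc2a4 was 3.50 below it. Trarg1 was 1.07, Akt2 1.26 and Insr 0.17 below their control means there, and Irs2 was 0.12 above its own. In M278 the markers were 2.82 and Slc2a4 2.87 below. In M610 the markers were 9.29, Slc2a4 4.21 and Insr 1.66 below. Across the anomalies the marker mean spanned 1.51 to 9.17 log2 CPM, and Slc2a4 stayed within 3.48 to 5.73.

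**Figure D3:**
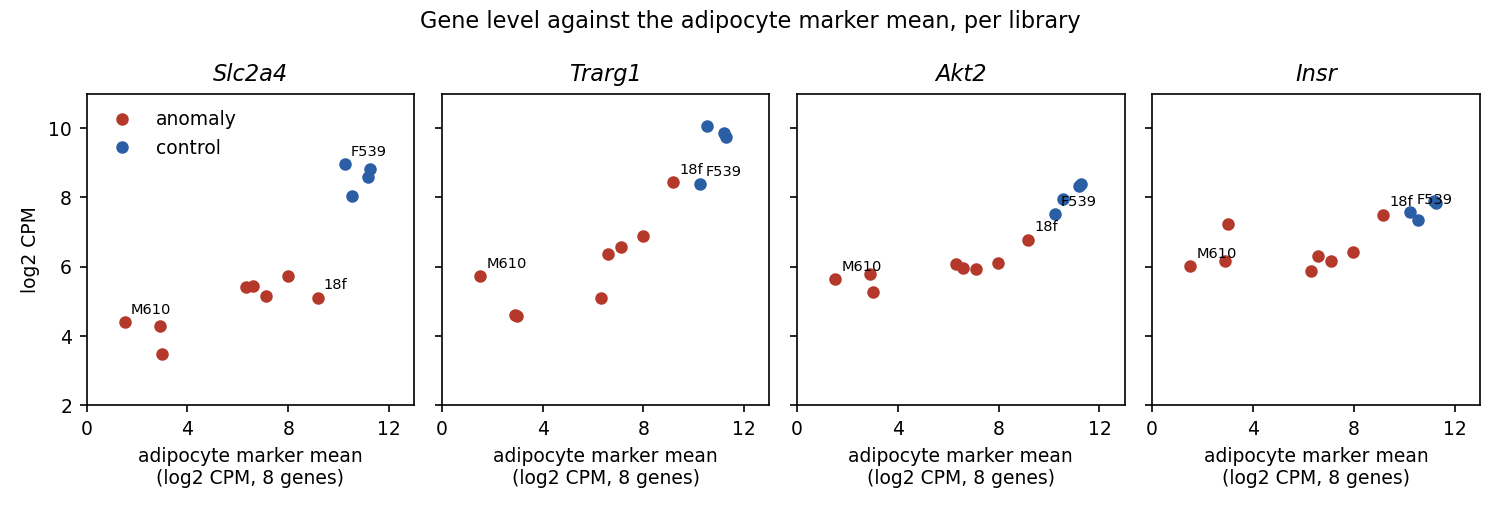
Log2 CPM of Slc2a4, Trarg1, Akt2 and Insr (vertical axis) against the mean log2 CPM of 8 adipocyte markers (horizontal axis), 1 point a library, for anomalies and controls. Anomaly 18f has a marker mean of 9.17 and Slc2a4 at 5.10, while control F539 has a marker mean of 10.23 and Slc2a4 at 8.96. Of the controls, F539 has the lowest marker mean and the highest Slc2a4.

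Set against the marker mean of the same animal, all 8 genes stood higher in the anomalies. By limma 3 of them passed the threshold, but the p-values of this fit are too small, as explained below. The direction did not hold for every gene in the fat-titled anomalies. Relative to the markers Insr was at 3.95 (adjusted p = 0.00866), Irs2 at 3.66 (0.0149) and Akt2 at 2.996 (0.0450) on the log2 scale. Irs1 was at 2.16 (0.15), Pde3b at 1.92 (0.197), Trarg1 at 1.79 (0.229), Slc2a4 at 1.37 (0.359) and Irs3 at 1.15 (0.448). By this rule 95.5% of all genes were higher and 0% lower, none also at an unadjusted p under 0.05, with a median of 4.99, so all 8 genes lay below the median gene. The SE of nearly every gene is that of the marker mean itself. Every gene carries that same marker term, and limma treated the variance shared over genes as if it were known. The p-values therefore do not allow for the small number of animals and are too small. Calls relative to the markers are a description only. The Irs2 call was lost without F539 (adjusted p = 0.0511). The Akt2 call was lost without M580 (0.0780), M566 (0.0819), M605 (0.0530), F539 (0.0863), M5 (0.0826), M602 (0.0932) or M2 (0.0937), and without M610 Insr was at 3.33 and Akt2 at 2.35. In the 2 fat-titled anomaly animals alone Slc2a4 was at -0.96 (adjusted p = 0.106), Irs1 at -0.038 (0.950) and Pde3b at -0.047 (0.934), below zero, while Insr was at 1.52 (0.00739), Irs2 at 1.32 (0.0252), Akt2 at 0.64 (0.241), Trarg1 at 0.38 (0.513) and Irs3 at 0.18 (0.752).

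Markers of other cell types are given because bulk tissue may hold them, and their part in these results was not tested. The 10 skeletal muscle genes summed to 32.8 to 5036 CPM in anomalies and 668 to 2338 CPM in controls, with Myh7 at 0 in at least 1 library. Of the 8 muscle genes tested, 0 were past the limma threshold, 0 with limma-voom and 0 at an unadjusted p under 0.05, with a median log2 fold change of -0.98. In 18f, where that sum was lowest, Slc2a4 was at 5.10 log2 CPM, within the other anomalies. In the M566 arm piece, where the sum was highest, Slc2a4 was at 5.41. The M566 leg piece had a sum of 46.3 CPM and Slc2a4 at 4.30. M278 had a sum of 3269 CPM and Slc2a4 at 5.73, while M610 had 2025.5 CPM and Slc2a4 at 4.40. Whether muscle content bears on Slc2a4 was not tested. The counts of called markers are to be read beside the 23.2% of all genes that were lower and the 15.3% that were higher. Without M602 9.26% of all genes were higher, and without M2 10.7%. Endothelial markers summed to 795 to 4622 CPM in anomalies and 971 to 2006 in controls, with 4 of 8 higher. That count was 1 without M602 or M2, 2 without M605 or F539, 5 without M566 and 6 without 18f. Macrophage markers summed to 428 to 3699 CPM in anomalies and 465 to 970.03 in controls, with 3 of 8 higher, and 6 without M566. Fibroblast markers summed to 2920 to 19309 CPM in anomalies and 2227 to 5914 in controls, with 1 of 8 higher and 1 lower. With any 1 of M580, F578, M610, M605 or the 4 controls left out 0 were higher, 2 were higher without M278, and 2 were lower without F578. The 8 adipocyte markers summed to 44.9 to 8900.01 CPM in anomalies and 16415 to 40144 in controls, with 8 of 8 lower. That count was 7 without F539 or M5, 6 without M602 or M2, and 3 with limma-voom.

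Within the anomalies all 8 genes were lower in the 5 animals titled subQ than in the 2 titled fat, and 0 of 8 passed limma's adjusted threshold. At an unadjusted p under 0.05 there were 3. By the adjusted rule 0.0232% of all genes were lower and 0.0154% higher. The differences were -2.66 for Irs3 (adjusted p = 0.245), -2.04 for Trarg1 (0.249), -1.25 for Pde3b (0.367), -0.93 for Irs1 (0.492), -0.75 for Slc2a4 (0.464), -0.72 for Irs2 (0.596), -0.71 for Akt2 (0.306) and -0.62 for Insr (0.445). Without 18f that of Irs2 was 0.31. Because all controls are titled fat, group and title cannot be told apart for the subQ animals. In the 2 fat-titled anomaly animals alone, 3 of the 8 genes were past the threshold against controls, Slc2a4 at -3.19 (adjusted p = 0.0124), Irs1 at -2.27 (0.0305) and Akt2 at -1.59 (0.0354). There Irs3 was at -2.05 (0.0501), Pde3b at -2.28 (0.0539), Trarg1 at -1.85 (0.110), Insr at -0.70 (0.221) and Irs2 at -0.91 (0.445).

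Other genes of the insulin pathway are given by list, to be read beside the 23.2% of all genes that were lower and the 15.3% that were higher. Among receptors and adaptors outside the set, 2 of 12 tested genes were lower and 1 higher (median log2 fold change 0.13). Sh2b2, a receptor adaptor gene, changed by -1.70 ± 0.40 (adjusted p = 0.00829). Dok1, a docking protein gene, was at 0.74 ± 0.27 (0.0488) and lost its call in 18 of 25 alternatives, among them the removal of any 1 of 18f, F578, M278, M580, M605, M610 or the 4 controls. Among PI3-kinase and AKT genes 6 of 15 were lower and 2 higher (median -0.31), with 4 higher without 18f or M566 and 1 higher without M602 or M2. Pik3r1, the main regulatory subunit, changed by -1.25 ± 0.19 (0.00136), Pik3cb, a catalytic subunit, by -1.18 ± 0.29 (0.00914), and Pik3cd, the leukocyte-enriched catalytic subunit, by 1.74 ± 0.33 (0.00292).

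Genes of the TORC branch were lower in 7 of 12 and higher in 0 (median -0.49). Without control M602 or M2, 3 were lower, and without M5, 4. Of all genes 14% were lower without M602, 15.4% without M2 and 17.6% without M5. Deptor, an mTOR inhibitor gene, changed by -2.68 ± 0.56 (adjusted p = 0.00451). Eif4ebp1, a translation repressor gene under mTOR, changed by -1.51 ± 0.40 (0.0133), lost without M2 (0.0504) or M602 (0.0503). Of 26 GLUT4 vesicle traffic genes 11 were lower and 1 higher (median -0.38), and 7 were lower without M602. Sort1, the sortilin gene of GLUT4 vesicle formation, changed by -2.66 ± 0.49 (0.00268). Ralgapa2, of the RalA-inhibiting complex, changed by -2.11 ± 0.27 (0.000836). Tbc1d1, a Rab-inhibiting AKT substrate, rose by 0.97 ± 0.26 (0.0143), lost without M2 (0.0520) or M602 (0.0502).

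Of 14 negative regulators 2 were lower and 4 higher (median -0.11), where 23.2% of all genes were lower and 15.3% higher. Counts this small were not tested against those shares. Without F539, 4 were lower, and without M5 or M602, 2 were higher. Grb14, an inhibitor of the insulin receptor, changed by -4.68 ± 0.79 (adjusted p = 0.00192) and Phlpp2, an AKT phosphatase, by -0.88 ± 0.18 (0.00446). Socs3, a cytokine-induced inhibitor of receptor signaling, rose by 2.18 ± 0.54 (0.00946). Enpp1, a membrane inhibitor of the receptor, rose by 2.56 ± 0.74 (0.0190). It was at 3.57 without control F539, and its call was lost without M2 (0.0681), M5 (0.0570) or M602 (0.0743).

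Insulin-responsive targets were the list with the most genes lower, 13 of 15, with 1 higher (median -3.74). The list was not split by whether insulin raises or lowers a gene, so its count gives no direction of insulin action, which was not tested. Pck1, which supplies glycerol for triglyceride, changed by -5.80 ± 1.42 (adjusted p = 0.00946) and Plin1, the lipid droplet coat gene that is also one of the adipocyte markers, by -5.48 ± 1.28 (0.00775). Neither passed with limma-voom (0.0938 for Pck1 and 0.0752 for Plin1). Without M610 they were at -5.12 and -4.80, and without 18f Pck1 was at -6.59. The higher one was Pde3a. Of 10 other glucose transporter and hexokinase genes 2 were lower and 3 higher (median 0.62). Hk2, the insulin-regulated hexokinase, changed by -2.23 ± 0.35 (0.00150) and Slc2a8, an intracellular transporter gene, by -0.92 ± 0.22 (0.00864). Slc2a6, a lysosomal transporter gene of macrophages, rose by 1.97 ± 0.45 (0.00692).

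**Figure D4:**
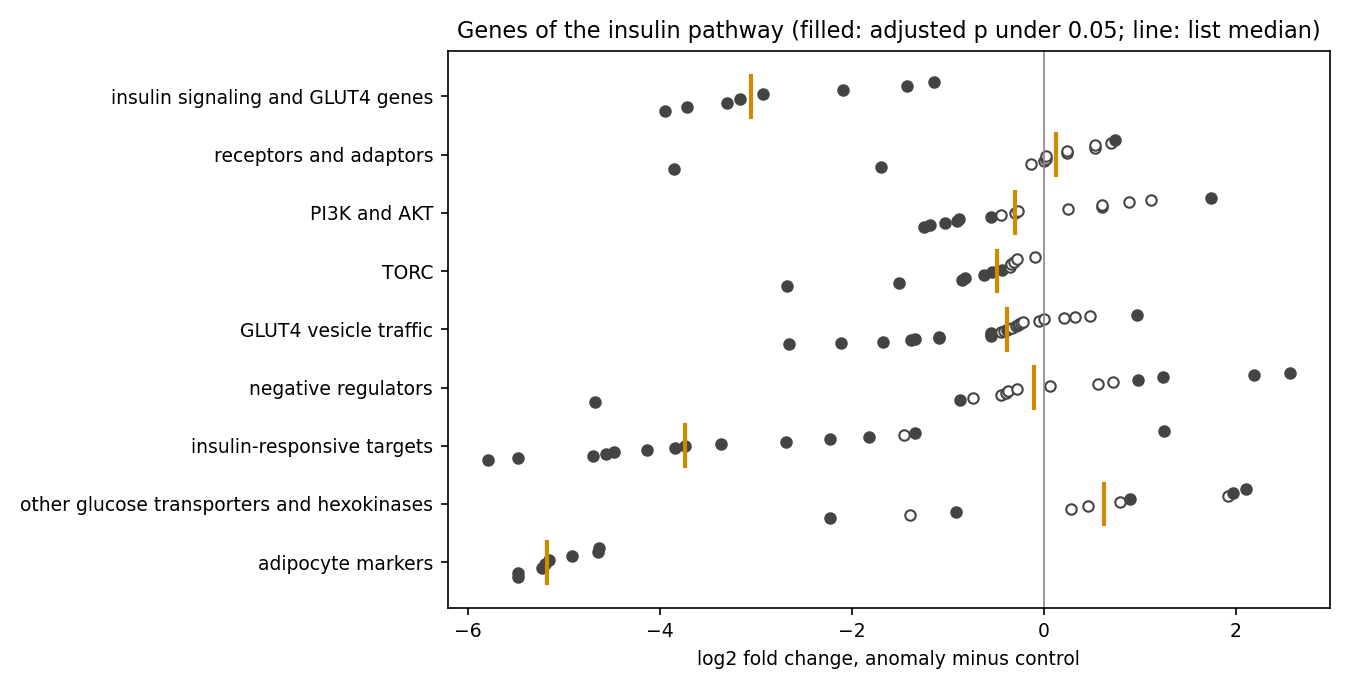
Log2 fold change of each tested gene, anomaly minus control, for the set, each pathway list and the adipocyte markers. Filled dots passed the limma threshold, open dots did not, and the line is the list's median. All 8 genes of the set were called lower, against 13 of 15 insulin-responsive targets and 11 of 26 GLUT4 vesicle traffic genes.

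These counts changed under scaling by library totals, which shifted the median gene by 0.43 on the log2 scale and called 12.1% of all genes lower and 35.2% higher. With it 2 receptor and adaptor genes were lower and 7 higher, 3 PI3-kinase and AKT genes were lower and 6 higher, and 7 vesicle traffic genes were lower and 5 higher. TORC genes stood at 4 lower, negative regulators at 2 lower and 5 higher, transporters at 2 lower and 5 higher, and targets at 13 lower and 1 higher. The set itself had 6 of 8 lower. In the fat-titled anomalies alone 4 of 15 targets, 4 of 26 traffic genes and 0 of 12 TORC genes were lower, where 5.47% of all genes were lower and 6.45% higher. Of the genes named above, Sh2b2, Pik3cb, Deptor, Eif4ebp1, Tbc1d1, Socs3, Enpp1, Pck1, Slc2a8, Slc2a1, Akt1 and Pde3a were not past the threshold in the fat-titled anomalies.

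Among the tested genes whose centred log2 profile over the 12 libraries was most like that of Slc2a4 were Ppp1r1a, Pfkfb1, Vegfb and Agpat2. Their root mean square differences from it were 0.44, 0.53, 0.59 and 0.60 log2 units, against a median of 1.85 over all tested genes. Within the set the nearest to Slc2a4 was Irs1, at 0.65, and the farthest was Irs2, at 1.51. The genes most like Trarg1 were Htra3, Itih5, Adcy5, Ffar2 and Pla2g16, at 0.37, 0.40, 0.46, 0.47 and 0.48, against a median of 1.92. Pde3b was the nearest of the set to Trarg1, at 0.64, and Slc2a4 was at 0.98. All libraries share the group difference, so these values are a description.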

How the data were processed

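RNA was measured in 12 mouse adipose libraries, made per the labels' protocols with a lipid tissue extraction kit and an unstranded poly-A kit. The submitters' processing notes name STAR, limma and the builds mm10 and GRCm38, with no version. Log2 values were deposited by the authors (normalized log2 CPM with a small prior, floor -6.97). Linear values were whole multiples of 1 step (100% within 0.1), read as recovered reads, and implied composition factors of 0.795 to 1.41. Intervals from reads would cover counting error only.

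The M566 pieces were averaged on the log2 scale. The labels do not say whether other samples share litters or days. limma 3.58.1 (statmod 1.5.0, R 4.3.3) was fitted to the 12955 genes that averaged 1 log2 CPM or more over 11 animals, with mean trend and robust variances, two-sided, Benjamini-Hochberg adjusted, threshold 0.05. Fold changes are anomaly minus control and include the prior, which is 0.00797 CPM. For Irs3, low in several anomalies, the change was -3.55 with log2(CPM + 1) and -3.65 with limma-voom, both smaller than in the main fit. The main fit was tested on simulated reads with the same spread setting for every gene and both groups. The spreads of these groups are unequal, so that test does not cover this. The fit relative to markers was not simulated. The 8 genes, lists and alternatives were chosen with earlier results of these data known. From each list the 2 called genes with the largest rise and the 2 with the largest fall were named, with the paralogs and the 5 nearest profiles, and some of these are not reported here. Coordinates are from GENCODE vM21, on GRCm38, and 32671 identifiers were named by the reference table. Of the 8 genes 4 had a RefSeq promoter entry.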

Additional observations from a re-analysis of the deposited data

Results flagged for a closer look

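Akt1 in the controls had 1 animal far from the others. Control M5 had 7.668 log2 CPM, while the remaining controls had 7.35 to 7.38, and the gap took 0.907 of the range of the 4 animals. Of 26 groups checked 1 stood out in this way, and chance gives about 1 in 20. Without M5 the comparison of Akt1 between anomalies and controls kept its call.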

How the results depend on the processing

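Over 642 recomputed values, 580 kept direction and side of the threshold (or stayed within 1.5 times for counts), 35 lost the call, 3 gained it, 19 counts moved and 5, none called in either setting, changed sign. Slc2a4, Irs1 and Akt2 kept their calls in all 27 alternatives against controls, Irs3, Pde3b and Trarg1 in 26, Insr in 24 and Irs2 in 15. The cause of the changes below was not tested. Genes lower and higher numbered 1583 and 4618 with library totals, 696 and 822 in fat-titled anomalies alone, and 1547 and 955 at a threshold of 0.01. Leaving out 1 animal gave 1823 to 3522 lower and 1205 to 2295 higher, both lowest without M602. Insr was at -0.72 with totals, -0.70 in fat-titled anomalies and -1.15 at 0.01, where it has no call. Irs2 lost its call with no filter (-1.43), totals (-1.002), without M580 and M566 (-1.41), fat-titled alone (-0.91) and at 0.01 (-1.43), and leaving out 1 animal gave -1.85 to -1.19. In fat-titled anomalies Irs3 was at -2.05, Pde3b at -2.28 and Trarg1 at -1.85. Relative to markers, where the p-values are too small, genes lower numbered 3 with the other marker list and 54 in fat-titled anomalies. There Akt2 was at 0.64 and lost its call, and Slc2a4 at -0.96, Irs1 at -0.038 and Pde3b at -0.047 changed sign. In subQ-titled anomalies Irs1 at 3.04 and Pde3b at 2.71 gained calls. Leaving out 1 animal gave 3.09 to 4.13 for Irs2 and 2.35 to 3.43 for Akt2. Between titles, lower and higher genes numbered 37 and 12 with no filter, and 0 to 116 and 0 to 92 without 1 animal, and Irs2 was at -1.75 to 0.31, with the sign changed without 18f.

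In fat-titled anomalies alone, where 2 against 4 animals cannot give an exact permutation p under 0.133, the ratio differences were 3.92 (Slc2a1 to Slc2a4), 4.004 (Slc2a3 to Slc2a4), 0.78 (Igf1r to Insr), 2.32 (Akt1 to Akt2), 2.86 (Pde3a to Pde3b) and -1.14 (Irs3 to Irs2), and Irs3 to Irs1 changed sign (0.22). Leaving out 1 animal gave 1.504 to 1.94 for Igf1r to Insr and 0.96 to 1.93 for Irs2 to Irs1. The ratio alternatives were chosen after seeing the data. No paired analysis was possible because the groups share no animal and the labels give no replicate numbers. The planned count models were not run because the deposited unit is log2, and a fit with the correlation of the M566 pieces was not run because that correlation could not be estimated. In M580 low genes rest on few reads.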
